A study of Mus musculus with 57 samples.

Results

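The 6 spleens of mice killed with an NHD13 leukemia were set against 3 whole bone marrows of healthy C57B6 mice. The 9 arrays were chosen by their titles from the 57 arrays of the series, since both groups have matching signals of spiked labelling controls. The leukemic mice carried NUP98-HOXD13, a fusion gene, under the vav promoter, which is active throughout blood cells, and were killed when signs of leukemia appeared. The control mice were wild type. No mouse was on a treatment, and ages are not in the labels, which ask for matched ages only where possible. The labels do not say whether each array is a separate mouse, so every p-value measures only the spread between these arrays.

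The groups differ in tissue as well as in disease. A gene that is higher in leukemic spleen may differ between spleen and marrow in any mouse, and with these 9 arrays leukemia and tissue cannot be told apart. For that reason 3 further groups are given beside the results. They are 2 wild-type spleens, 6 wild-type whole marrows of a strain that the labels do not name, and 3 whole marrows of NHD13 mice without signs of leukemia. The last group is called healthy NHD13 marrow below, where healthy means only without signs of leukemia. In a bulk sample, fewer cells of a type and less RNA per cell cannot be told apart either.

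NUP98-HOXD13 joins part of a nuclear pore protein to the DNA-binding homeodomain of HOXD13. Fusions of this kind are known to keep HOXA genes active in blood progenitors, where HOXA9 and its partners of the PBX and MEIS families hold cells in an immature, self-renewing state. Mice with the fusion are known to develop a myelodysplastic disease with poor production of blood cells, including B cells, before acute leukemia.

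Some arrays stood apart. The labelling control LysX_5 lay between 7.28 and 9.4 on the 9 arrays, against a median of 4.67 on the other 48, of which 1 reached the same range. Leukemic array 3 correlated with the other leukemic arrays at r = 0.930 to 0.951 over all probe sets, below the 0.967 to 0.982 among the other 5. C57B6 marrows 1 and 3 were the most alike of the 104 pairs of arrays within groups of the series (r = 0.996, against 0.993 for the next pair). The Gapdh 3' minus 5' signal, which rises as RNA degrades, was 1.36 in C57B6 marrow 2 and 0.85 in leukemic array 5, and 0.03 to 0.35 on the other 7. By Xist and Eif2s3y, all 3 C57B6 marrows and leukemic arrays 1, 3 and 6 were male, and leukemic arrays 2, 4 and 5 were female.

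In all, 13300 genes were tested with limma on log2 signals, and 2913 passed an adjusted p of 0.05 (21.9%). Of these, 2007 were higher in leukemic spleen (15.1% of genes tested) and 906 lower (6.81%). A log2 difference of at least 1 was also met by 1373 genes (10.3%), 907 higher and 466 lower. The groups did not overlap on any array for 3860 genes (29%). Each C57B6 array weighed on the count: it was 1485 without C57B6 marrow 1, 1351 without marrow 2 and 1200 without marrow 3. With marrows 1 and 3 averaged and counted as 1 array it was 1349. Among 108 called genes that the naming rule picked, 64 kept their call with each of the 9 arrays left out in turn, and none changed sign. The latter was largely fixed by the choice, since genes without overlap cannot change sign when 1 array is left out.

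Several homeobox genes of the HOXA and HOXC clusters were higher in leukemic spleen. Of 5 HOXA genes tested 4 rose, with a list median of 1.03 log2 units against 0.066 over all genes tested. All 3 marrows were male, and with the 3 male leukemic arrays alone 1 of the 5 was called. Hoxa9, which drives self-renewal of myeloid progenitors, was at 7.47, 9.41, 8.62, 10.11, 9.37 and 10.16 in leukemic arrays 1 to 6 and at 6.69, 6.08 and 6.61 in C57B6 marrow. All 6 leukemic arrays lay above all 3 marrows, array 1 by the least. The difference was 2.73 ± 0.54 (SE, adjusted p = 0.0088), and 2.29 ± 0.64 with the male arrays alone, where Hoxa9 was not called (adjusted p = 0.0742). A dimmer Hoxa9 probe set showed 0.79 ± 0.25, so the size depends on the probe set.

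Hoxa7, which is often expressed with Hoxa9 in leukemia, was at 7.46, 8.46, 7.89, 7.94, 7.92 and 8.02 against 6.59, 7.31 and 6.36, without overlap. It rose by 1.19 ± 0.25 (adjusted p = 0.0109), a call lost without C57B6 marrow 3 (0.057). Hoxa5, another gene of the cluster, rose by 1.03 ± 0.18 (adjusted p = 0.00557). Another Hoxa5 probe set showed 2.19 ± 0.36, and the Hoxa5 values that follow are of the first probe set alone. Hoxa5 was higher still in wild-type marrows 4 to 6, at 8.11, 8.3 and 7.97 against 7.26 to 7.80 in the leukemias, so that its difference was −0.634 against those 3 marrows and 0.107 against all 6 other wild-type marrows (adjusted p = 0.786). It was not called after the tissue subtraction described further on (adjusted p = 0.0631). Hoxa2 rose by 0.60 ± 0.19 (adjusted p = 0.0463), but 7 of the 9 arrays ended that call when left out, with an adjusted p of up to 0.161 without C57B6 marrow 3. Without that marrow 2 of the 5 HOXA genes were called. Hoxa3, the HOXA gene not called (0.19), showed 1.3 ± 0.29, 0.45 ± 0.28 and −0.033 ± 0.14 on its other probe sets. Hoxa10 was below the signal filter, at 3.68 to 6.02 in the leukemic arrays, highest in array 4, and 3.68 to 3.92 in C57B6 marrow.

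In the HOXC cluster 2 of 5 genes rose. Hoxc4, the gene at the 3' end of the cluster, showed the larger change, at 8.12, 8.86, 9.79, 8.34, 6.57 and 8.56 in the leukemic arrays and 5.03, 5.31 and 4.96 in C57B6 marrow. Array 3 was highest and array 5 lowest, and the groups did not overlap. The difference was 3.27 ± 0.55 (adjusted p = 0.0049). Hoxc6 rose by 0.82 ± 0.22 (adjusted p = 0.0267), but not without leukemic array 4 or any 1 of the C57B6 marrows, where its adjusted p reached 0.104, and with the 6 other wild-type marrows as the control its difference was −0.09. Hoxc5, not called at 0.92, showed 2.89 ± 0.46 and 0.70 ± 0.32 on its other probe sets, so the HOXC count depends on the probe set. None of 3 HOXB and 2 HOXD genes passed. Hoxb4 differed by 0.05 ± 0.30 and Hoxd9 by 0.0085 ± 0.14. The mouse genes that gave the fusion its parts were not called either. Nup98 differed by 0.12 ± 0.13 (adjusted p = 0.545) and Hoxd13 by −0.23 ± 0.19 (adjusted p = 0.4), and whether their probe sets detect the transgene is not given in the sources used here.

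Among 8 HOX cofactors Pbx3 stood out. It encodes a homeodomain partner of HOXA9 and was at 10.72, 10.96, 10.31, 11.17, 11.43 and 10.86 in the leukemic arrays, against 8.03, 8.6 and 7.89. Its leukemic range of 10.31 to 11.43 was narrow and lay wholly above the marrows. It rose by 2.73 ± 0.25 (adjusted p = 0.00025), and its other probe set by 3.38 ± 0.26. Meis2 rose by 0.69 ± 0.15 (adjusted p = 0.0124, and 0.0519 without C57B6 marrow 1), and Pknox1, a relative of the MEIS genes, fell by 0.80 ± 0.17 (adjusted p = 0.0132, not called without C57B6 marrow 2 or 3, at most 0.0568). Meis1, the best known partner of Hoxa9 in leukemia, was split among the leukemias. It was at 8.06, 7.35 and 8.13 in arrays 2, 4 and 5, at 6.49 in array 6, and at 5.42 and 4.48 in arrays 1 and 3, against 5.87, 6.31 and 6.00 in C57B6 marrow. The high arrays 2, 4 and 5 are the 3 female ones, so for Meis1 leukemia subsets and sex cannot be told apart. The mean difference of 0.59 ± 0.76 was not called (adjusted p = 0.603), and with the male arrays alone it was −0.597 ± 0.49 (adjusted p = 0.449).

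**Figure D1:**
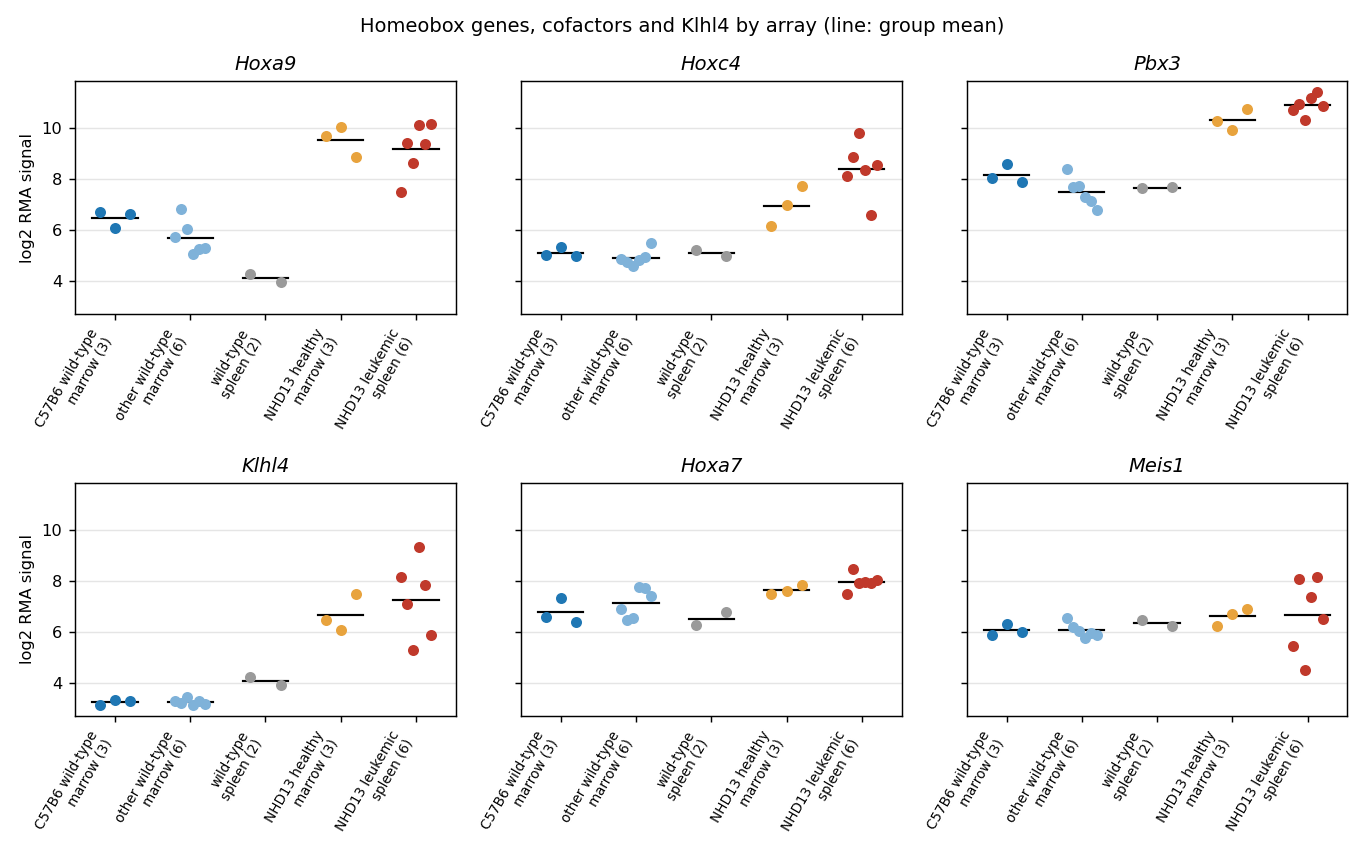
Log2 RMA signal of 6 genes (vertical axis) on each array of 5 groups; each point is an array and the line is the group mean. Hoxa9, Hoxc4, Pbx3 and Klhl4 were higher in every leukemic spleen than in every C57B6 marrow, while Meis1 lay on both sides of the marrow values.

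The plot by array also shows where these genes stood before leukemia. In the 3 NHD13 marrows without signs of leukemia Hoxa9 was at 9.68, 10.03 and 8.87, within the leukemic range. Pbx3 was at 10.29, 9.91 and 10.76 there. With those marrows as the control, the leukemic spleens differed by −0.33 ± 0.56 for Hoxa9 (adjusted p = 0.706) and by 0.59 ± 0.26 for Pbx3 (adjusted p = 0.136). Hoxc4 was at 6.15, 6.98 and 7.74 in healthy NHD13 marrow, and the difference of 1.41 ± 0.61 was not called (adjusted p = 0.128). Tissue and labelling controls differ in this comparison too.

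Klhl4 was among the 12 largest rises. It belongs to the kelch-like family, many of whose proteins pick substrates for ubiquitin ligases. Its signal was 8.15, 7.08, 5.28, 9.34, 7.85 and 5.86 in the leukemic arrays, against 3.11, 3.32 and 3.29 in C57B6 marrow, and the lowest leukemic value, in array 3, was still above them. The rise was 4.02 ± 0.77 (adjusted p = 0.00815), and a dimmer probe set gave 0.74 ± 0.36. Wild-type spleen was at 4.21 and 3.90, and the 6 other wild-type marrows at 3.13 to 3.42. Healthy NHD13 marrow was at 6.47, 6.07 and 7.47, so all 9 NHD13 arrays lay above all 11 wild-type arrays of these tissues. Against healthy NHD13 marrow the leukemic spleens differed by 0.59 ± 0.81 (adjusted p = 0.636).

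The promoter of Klhl4 is shown because the gene, like Pbx3 and Hoxa9, lay above the wild-type arrays in both NHD13 groups. Klhl4 and Hoxa9 did not share an order among the leukemias, as Klhl4 was lowest in array 3 (5.28) and Hoxa9 in array 1 (7.47). The promoter lies at chrX:114474083-114474382 on the plus strand of GRCm38.p6, 300 bases around the gene's start as RefSeq gives it. It was searched on both strands for TGACAG, the core bound by MEIS and PKNOX proteins, and the capitals mark 1 match, read as its reverse complement CTGTCA. The same letters are in 19.3% of 27025 promoters of this length, and a match is a description, not a binding site. In the B cell lists given below, where most genes fell, 4 of 9 precursor and 1 of 12 B cell marker promoters held them. That of Vpreb1, printed below with other letters marked, is among these.
Klhl4: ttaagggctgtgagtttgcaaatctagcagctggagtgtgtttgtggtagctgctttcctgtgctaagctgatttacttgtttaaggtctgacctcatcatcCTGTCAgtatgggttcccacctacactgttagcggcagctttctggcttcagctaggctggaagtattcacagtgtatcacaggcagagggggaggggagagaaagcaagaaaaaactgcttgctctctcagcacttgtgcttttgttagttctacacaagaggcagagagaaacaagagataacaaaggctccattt

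Regulators of stem and progenitor cells were little changed as a list. Of 19 tested, 3 rose and none fell (median 0.20). Over all genes tested 15.1% were called higher, so the count of rises was near that share. Procr, which encodes the endothelial protein C receptor of stem cells and vessels, rose by 1.34 ± 0.16 (adjusted p = 0.00117), and was at 7.38 and 7.68 in wild-type spleen, above the leukemic range of 6.14 to 6.66. Bmi1, a Polycomb gene needed for self-renewal, rose by 1.58 ± 0.36 (adjusted p = 0.0152, and 0.0584 without C57B6 marrow 2). Angpt1, a ligand of the Tie2 receptor, rose by 1.69 ± 0.48 (adjusted p = 0.0332), a call that ended without leukemic array 1 or 6 or any 1 marrow, with 0.143 at most. The receptors of early progenitors were not called. Kit differed by 0.52 ± 0.51, Cd34 by 0.80 ± 0.75 and Flt3 by −0.11 ± 0.82, each with overlapping groups.

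B cell genes fell together. All 17 tested B cell markers were called lower in leukemic spleen, where 6.81% of all genes tested were. The groups did not overlap for any of the 17, which held for 29% of all genes tested. The list median was −2.96. Spib, a transcription factor gene of B cells and plasmacytoid dendritic cells, was at 5.30, 6.88, 4.40, 5.00, 5.98 and 6.00 in the leukemic arrays, against 10.3, 10.71 and 10.71 in C57B6 marrow, a fall of 4.98 ± 0.46 (adjusted p = 0.00025). Ms4a1, which encodes CD20, was at 5.54, 6.36, 4.17, 4.80, 5.74 and 8.05, against 9.99, 8.73 and 10.51, so array 6 kept the most. It fell by 3.96 ± 0.75 (adjusted p = 0.00768). Pou2af1, a coactivator of antibody genes, fell by 4.21 ± 0.88 (adjusted p = 0.011, and 0.0534 without C57B6 marrow 3), and Fcmr, the Fc receptor for IgM, by 4.09 ± 0.18 (adjusted p = 3.07e-06). With single arrays left out, 13 to 17 of the 17 genes were called, the fewest without C57B6 marrow 3.

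B cell precursors make a surrogate light chain from Vpreb1 and Igll1 while their heavy chain is being tested, and cut antibody genes with Rag1 and Rag2. In this list 9 of 13 genes fell (median −1.86), and 6 did without C57B6 marrow 1 or without marrow 3. Vpreb1 was at 5.20, 5.10, 5.01, 5.28, 4.96 and 4.91 in the leukemic arrays and at 9.22, 8.99 and 9.45 in C57B6 marrow. The spread within each group was small beside the difference of −4.14 ± 0.15 (adjusted p = 1.78e-06). Igll1 fell by 3.89 ± 0.30 (adjusted p = 8.11e-05), from 9.92, 8.87 and 10.23 to between 5.39 and 6.20. Rag1 was at 9.26, 6.46 and 9.96 in the marrows and 3.76 to 4.05 in the leukemias, a fall of 4.68 ± 0.61 (adjusted p = 0.00163). Marrow 2, whose RNA was the most degraded by its Gapdh signals, held the low Rag1 value; the part of RNA quality in this was not tested.

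Promoters of B lineage genes that fell are shown with the E-box CAGGTG in capitals, the form bound by E proteins, which drive early B cell genes. It is a form of the wider pattern CANNTG, and both strands were searched. RefSeq's promoter table of GRCm38.p6 held 12 of the 17 tested B cell markers, of which 6 carried the letters, and 9 of the 13 precursor markers, of which 3 did. Among all 27025 promoters of 300 bases the share was 20%. Vpreb1 lies at chr16:16869206-16869505 and Igll1 at chr16:16863936-16864235, both on the minus strand, and Cd79a, a chain of the B cell receptor that fell by 2.63 ± 0.25, at chr7:24897247-24897546 on the plus strand. In Igll1 the match reads CACCTG, the reverse complement.
Vpreb1: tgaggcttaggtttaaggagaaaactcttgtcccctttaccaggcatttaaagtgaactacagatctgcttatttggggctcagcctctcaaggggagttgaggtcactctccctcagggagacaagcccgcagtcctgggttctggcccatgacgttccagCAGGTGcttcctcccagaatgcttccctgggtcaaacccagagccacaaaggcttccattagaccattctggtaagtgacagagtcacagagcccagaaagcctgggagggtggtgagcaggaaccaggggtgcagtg
Igll1: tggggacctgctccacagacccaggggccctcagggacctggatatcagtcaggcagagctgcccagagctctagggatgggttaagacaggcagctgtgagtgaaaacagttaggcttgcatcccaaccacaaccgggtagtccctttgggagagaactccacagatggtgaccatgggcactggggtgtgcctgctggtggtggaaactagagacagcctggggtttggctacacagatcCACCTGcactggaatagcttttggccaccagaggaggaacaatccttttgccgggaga
Cd79a: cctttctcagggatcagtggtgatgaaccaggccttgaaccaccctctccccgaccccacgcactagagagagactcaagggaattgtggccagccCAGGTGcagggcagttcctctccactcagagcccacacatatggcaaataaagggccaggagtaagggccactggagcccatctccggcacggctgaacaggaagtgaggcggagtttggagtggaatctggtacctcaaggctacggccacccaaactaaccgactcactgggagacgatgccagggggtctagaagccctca

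The other control groups place these falls differently for mature and precursor B cells. In wild-type spleen Ms4a1 was at 12.34 and 12.64, above every marrow, so the leukemic spleens were further from healthy spleen than from marrow. Vpreb1 was at 4.65 and 4.84 in wild-type spleen, near the leukemic values. In healthy NHD13 marrow Ms4a1 was between 4.93 and 6.02, and Vpreb1 was at 4.93, 8.42 and 7.29. With those 3 marrows as the control, 4 of 17 B cell markers and 2 of 13 precursor markers were lower.

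**Figure D2:**
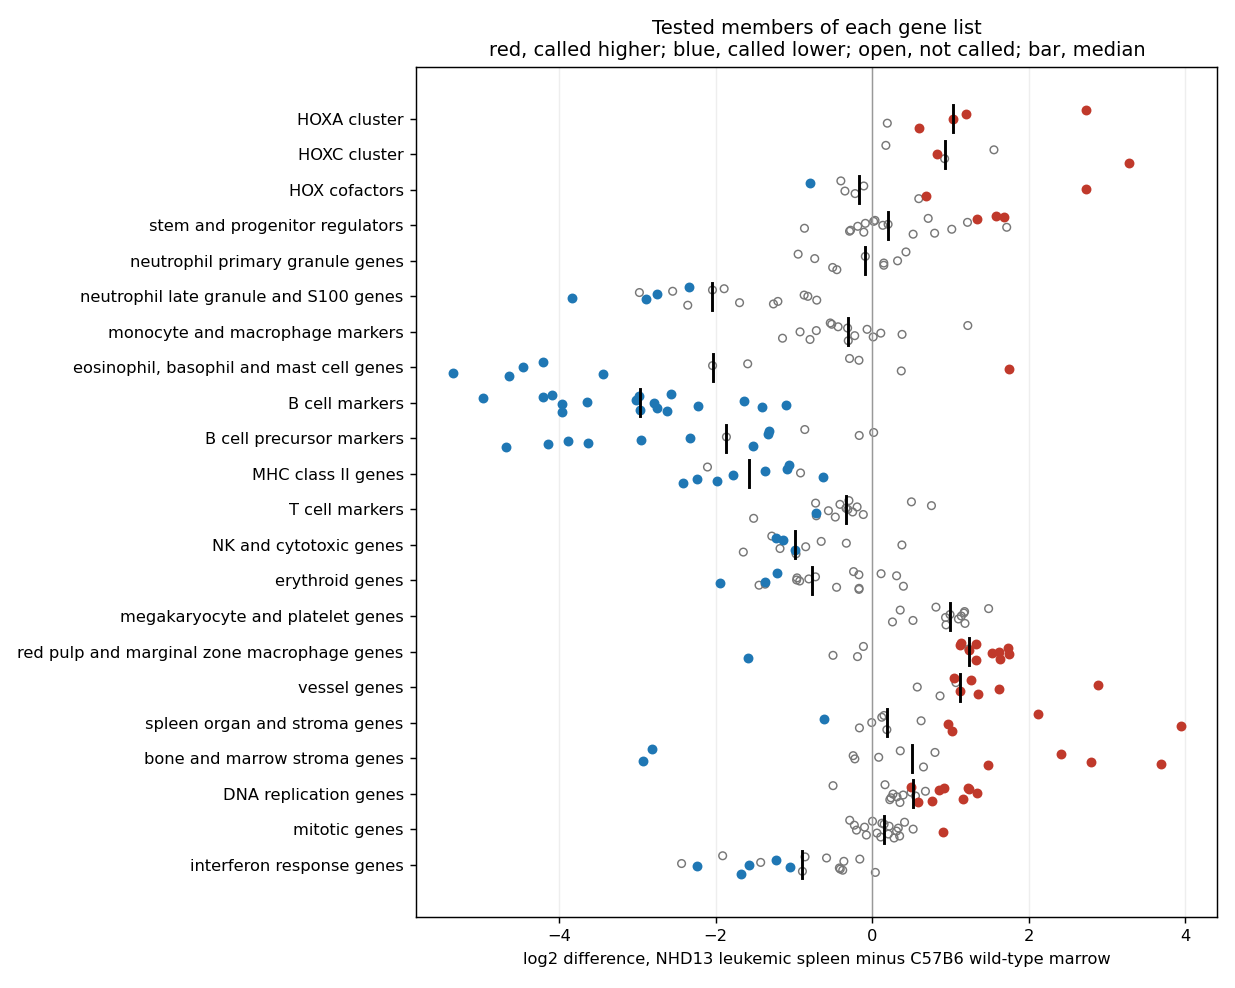
Log2 difference of leukemic spleen minus C57B6 marrow (horizontal axis) for every tested member of 22 gene lists; filled points were called higher (red) or lower (blue), open points were not called, and the bar is the list median. All 17 B cell markers lie to the left of 0, and 10 of 15 red pulp macrophage genes are called to the right.

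Genes of antigen presentation were lower than in C57B6 marrow, but not than in every control. Of 10 MHC class II genes 8 fell (median −1.57), but 1 did without C57B6 marrow 3 and 3 did without marrow 1 or without marrow 2. With the 6 other wild-type marrows as the control 3 were lower and 1 higher (median −0.228), and with healthy NHD13 marrow none was lower and 1 was higher (median 0.288). Ciita, the master regulator of these genes, fell by 1.06 ± 0.19 (adjusted p = 0.00655). Cd74, the invariant chain, fell by 1.78 ± 0.38 (adjusted p = 0.0118), though not without C57B6 marrow 2 (0.0549) or marrow 3. It was at 7.01 to 8.82 in the leukemias, 9.68 to 10.19 in C57B6 marrow and 13.03 and 13.49 in wild-type spleen.

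T cell, natural killer, dendritic and plasma cell lists had 1 to 3 called members each, all lower. Over all genes tested 6.81% were called lower. The T cell count was near that share, and the counts of the other lists were above it. Among 15 T cell markers Cd4 fell, by 0.72 ± 0.18 (adjusted p = 0.0199, and 0.0755 without C57B6 marrow 2), and 3 fell without leukemic array 6. Of 11 natural killer genes 3 fell, and none did without C57B6 marrow 3. Il2rb, a receptor chain for interleukins 2 and 15, fell by 1.23 ± 0.25 (adjusted p = 0.00988, and 0.0514 without that marrow). Of 11 dendritic cell genes 3 fell, and 1 did without C57B6 marrow 1 or without marrow 3. Siglech, a marker of plasmacytoid dendritic cells, was the one with the smallest adjusted p (−1.99 ± 0.33, 0.00463). Of 8 plasma cell genes 3 fell, and 1 did without C57B6 marrow 1 or without marrow 3. The largest of these was Irf4, which directs plasma cell formation (−2.93 ± 0.43, adjusted p = 0.00274).

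The largest single fall was that of an eosinophil gene, Epx. In the list of 11 genes of eosinophils, basophils and mast cells 5 fell and 1 rose, and 4 to 6 fell with single arrays left out. It encodes the peroxidase of eosinophil granules and was at 4.53, 3.97, 3.87, 3.78, 3.85 and 3.69 in the leukemic arrays, against 9.45, 9.58 and 8.90, a fall of 5.36 ± 0.22 (adjusted p = 2.93e-06). Wild-type spleen, at 4.33 and 4.19, and healthy NHD13 marrow, at 4.07 to 4.88, were about as low in Epx. Prg2, the major basic protein of eosinophils, fell by 4.65 ± 0.75 (adjusted p = 0.00422), and Mcpt8, a protease of basophils, by 4.46 ± 0.70 (adjusted p = 0.00376). Neither gene overlapped between groups, but wild-type spleen was also low, at 3.73 and 3.82 for Prg2 and 4.69 and 4.76 for Mcpt8. With healthy NHD13 marrow as the control, none of the 11 genes was lower and 2 were higher. Ccr3, the eotaxin receptor of eosinophils, went the other way, with a rise of 1.75 ± 0.29 (adjusted p = 0.0049). Fcer1a, the IgE receptor of basophils and mast cells, fell by 4.21 ± 1.03 on average (adjusted p = 0.0201), yet leukemic array 3 was at 8.49 beside 3.33 to 3.86 in the other 5 and 8.28 to 9.07 in C57B6 marrow.

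Of the 2 neutrophil lists, the late granule list alone had called members. None of 9 primary granule genes, which promyelocytes express, was called (median −0.089; 1 rose without leukemic array 3). Mpo, the myeloperoxidase of that stage, was at 13.10, 12.86, 8.89, 13.01, 13.36 and 13.10, beside 12.80, 13.04 and 12.68 in C57B6 marrow, so that array 3 alone lay apart. Of 15 late granule and S100 genes, which more mature cells express, 4 fell (median −2.04), where 6.81% of all genes tested were called lower. Mmp9, a gelatinase of mature neutrophils, was at 9.33, 8.41, 5.25, 8.68, 8.35 and 10.66, against 12.32, 12.27 and 12.26, and fell by 3.84 ± 0.91 (adjusted p = 0.0181). Mmp8 fell by 2.89 ± 0.84 and Cxcr2, the chemokine receptor of mature neutrophils, by 2.76 ± 0.79 (adjusted p = 0.0374 and 0.0353), and Csf3r, the receptor for G-CSF, by 2.34 ± 0.73 (adjusted p = 0.0472). None of these 4 was called when any 1 of the C57B6 marrows was left out, with adjusted p up to 0.139, and 8 of the 15 were called without leukemic array 3. Whether the late and the primary genes differ was not tested.

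Of the monocyte, erythroid and platelet lists, the erythroid one alone had called members. None of 15 monocyte and macrophage markers was called (1 rose without leukemic array 3). Nor was any of 13 megakaryocyte and platelet genes, though 4 rose without leukemic array 3. The median of the platelet list was 0.99, against 0.066 over all genes tested. Of 18 erythroid genes 3 fell (median −0.77), where 6.81% of all genes tested were called lower. None of the 18 was called lower without any 1 of the C57B6 marrows. The 3 that fell were Alas2 (−1.95 ± 0.51) and Fech (−1.21 ± 0.33), the first and last enzymes of heme synthesis, and Ank1 (−1.37 ± 0.33), the ankyrin of the red cell membrane. Among 15 transcription factors of myeloid cells Irf4, named above, was the one that fell, and among 17 receptors for cytokines it was Csf3r.

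Genes that are also high in wild-type spleen made up most of the largest rises. Of the 12 rises with the largest difference, 11 reached at least 8.16 in both wild-type spleens, and Klhl4 was the exception. Coch, which encodes the matrix protein cochlin, was at 9.52, 10.30, 8.25, 9.60, 10.56 and 10.32 in the leukemic arrays, against 4.18, 4.19 and 4.23, a rise of 5.56 ± 0.44 (adjusted p = 9.64e-05). Wild-type spleen was higher still, at 11.34 and 11.53. Ackr3, a scavenging receptor for the chemokine CXCL12, rose by 4.91 ± 0.22, and Smoc2, a matricellular protein, by 4.80 ± 0.27 (adjusted p = 3.07e-06 and 1.11e-05). Hs6st2, a sulfotransferase that modifies heparan sulfate, rose by 4.42 ± 0.52, and Adamdec1, a protease-like protein of tissue macrophages, by 4.25 ± 0.61. Sorbs2, Tcf21, Col14a1, Igfbp7, Sparcl1 and Col3a1 rose by 3.69 to 4.03. Tcf21 is a transcription factor that the spleen needs to form, and the others encode an actin adaptor, collagens and secreted matrix proteins.

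Lists of spleen macrophage, vessel and organ genes gave more such rises. Of 15 genes of red pulp and marginal zone macrophages 10 rose and 1 fell, where 15.1% of all genes tested were called higher. C1qb, a chain of complement C1q, rose by 1.33 ± 0.19 (adjusted p = 0.00232) and C6, a late complement component, by 1.75 ± 0.25 (adjusted p = 0.00234). The other C1qb probe sets showed 0.608 ± 0.306 and 0.725 ± 0.323. C1qb was not called with the probe set brightest on the 9 arrays, so its call depends on the probe set. Spic, the transcription factor of red pulp macrophages, rose by 1.33 ± 0.24 and Mertk, a receptor for dying cells, by 1.61 ± 0.29. Hmox1, the heme oxygenase of the same cells, fell by 1.58 ± 0.49 (adjusted p = 0.0455), a call that held without leukemic array 3 or 4 but not without any other array. Vessel genes rose in 6 of 9 cases, with Plvap, a protein of fenestrated endothelium, at 2.88 ± 0.36 (adjusted p = 0.00133) and Tek, the Tie2 receptor, at 1.62 ± 0.23 (adjusted p = 0.00252). Among 11 genes of the spleen organ 4 rose and 1 fell, and 2 rose without C57B6 marrow 1 or marrow 3. Stab2, a scavenger receptor of sinusoids, rose by 2.12 ± 0.37 and Tlx1, a homeobox gene needed for spleen formation, by 1.02 ± 0.24 (adjusted p = 0.0164, and 0.0708 without C57B6 marrow 3).

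Of 12 genes of bone and marrow stroma 2 fell and 4 rose. Ibsp, the bone sialoprotein of osteoblasts, was at 3.19 to 3.50 in the leukemic arrays, against 5.57, 6.44 and 6.80, a fall of 2.94 ± 0.24 (adjusted p = 9.82e-05). Adipoq, the hormone of fat cells, fell by 2.81 ± 0.19 (adjusted p = 4.01e-05), from 6.6, 6.84 and 7.42 to between 3.93 and 4.42. Those that rose encode collagens (Col3a1, and Col1a2 at an adjusted p of 0.0475), the matrix protein Sparc (2.80 ± 0.31, adjusted p = 0.000698) and the KIT ligand Kitl (2.42 ± 0.30, adjusted p = 0.00132). Kitl was at 8.2 to 9.57 in the leukemias and at 8.71 and 8.75 in wild-type spleen.

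To put a size on the tissue, the wild-type spleen minus marrow difference was subtracted from the leukemic minus C57B6 difference in a model of all spleen and whole marrow arrays. With it removed 2529 genes were called (19%), 1406 higher (10.6%) and 1123 lower (8.44%). Of these, 1252 had been called in the same direction before, which is 43% of the first set and 49.5% of the second. The count rests on 2 wild-type spleens: it was 1025 without wild-type spleen 2. Of the 2007 genes first called higher, 14% had wild-type spleen above wild-type marrow by at least 1 log2 unit, against 9.26% of all genes tested. Among the 907 of them with a difference of at least 1 the share was 24.4%.

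Most rises of genes high in wild-type spleen were no longer called after the subtraction. Coch went to −1.29 and Ackr3 to −0.83, and none of 15 red pulp macrophage genes was higher. Sparcl1 kept its sign, at 0.881, without a call (adjusted p = 0.227). Of 9 vessel genes 1 was still higher, Egfl7, a protein secreted by endothelium (0.877, adjusted p = 0.0413). Hoxa9 became larger, at 4.32 (adjusted p = 0.000397), as wild-type spleen held less of it than wild-type marrow, at 4.27 and 3.96 against 5.06 to 6.81. Klhl4 stayed at 3.20 (adjusted p = 0.003) and Hoxc4 at 3.09 (adjusted p = 0.000486), while Pbx3 gave 2.57 (adjusted p = 0.0389). B cell markers were lower in 17 of 17 genes with a median of −5.87, and MHC class II genes in 10 of 10 with a median of −4.61. T cell markers, of which 1 had fallen before, were lower in 13 of 15. The largest falls called both ways included Ms4a1 (−8.12), Srpk3, a muscle-type protein kinase (−7.87), Fcmr (−7.75) and the complement receptor gene Cr2 (−7.53), and the largest rises included the replication genes Rfc4 (3.04) and Dscc1 (2.96).

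**Figure D3:**
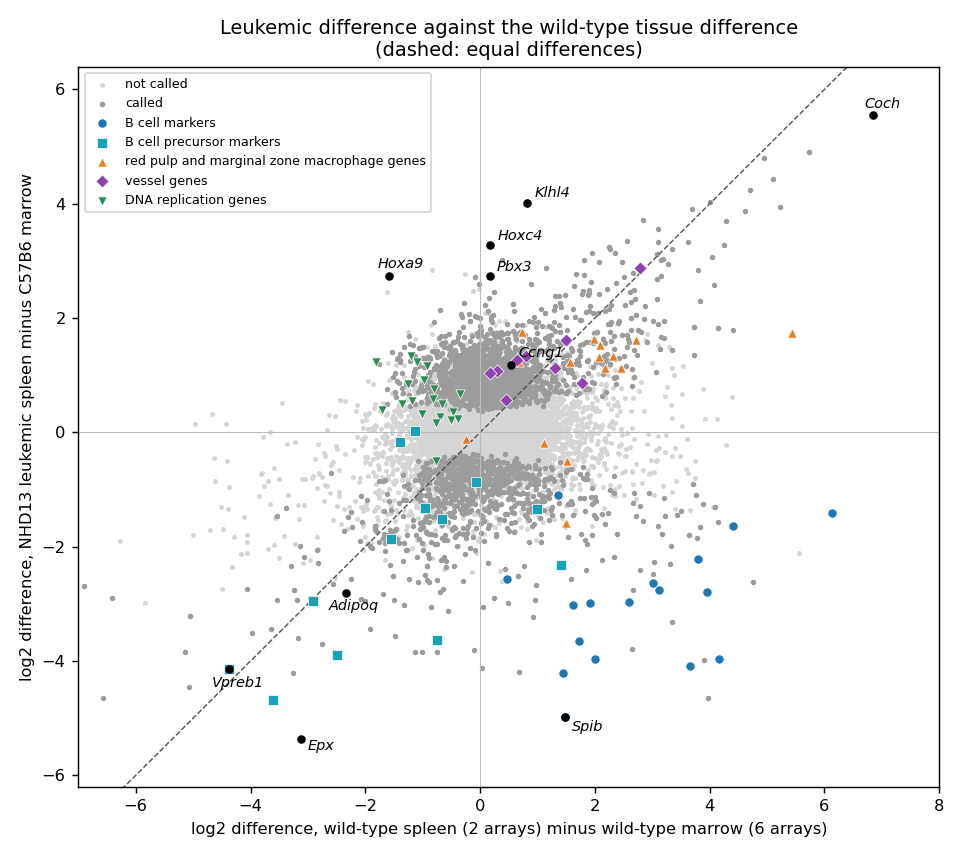
Each gene's log2 difference of leukemic spleen minus C57B6 marrow (vertical axis) against its difference of wild-type spleen minus wild-type marrow (horizontal axis); grey points are all genes tested, coloured points are 5 gene lists and black points are named genes. Coch and the vessel genes lie near the dashed line of equal differences, while Klhl4, Hoxc4, Pbx3 and Hoxa9 lie above it and the B cell markers far below it.

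The subtraction also moved granule and cycle genes. All 15 late granule genes were lower in wild-type spleen than in marrow by at least 1, and with that removed 2 of them were higher and none lower. Of the 9 primary granule genes 7 became higher, with Mpo at 4.19 (adjusted p = 0.0358). In wild-type spleen 8 of these 9 were lower than in wild-type marrow by at least 1. Mmp8 changed from −2.89 to 3.53, with adjusted p = 0.0292 for the second value. Of 19 mitotic genes 13 were higher after the subtraction (median 1.54), and of 20 replication genes 15 (median 1.49), where 10.6% of all genes tested were. None of these genes was higher in wild-type spleen than in wild-type marrow. There 16 mitotic and 8 replication genes were lower in spleen by at least 1, so the subtraction itself raised their values.

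Of 20 DNA replication genes 9 rose and 11 were not called (median 0.52), where 15.1% of all genes tested were called higher. Without C57B6 marrow 2 the count was 4, and with leukemic arrays of the same sex as the marrows 3. Gins1, a subunit of the replicative helicase, was at 9.52, 9.35, 9.58, 9.48, 9.44 and 9.34, against 8.43, 7.72 and 8.19, a rise of 1.34 ± 0.16 (adjusted p = 0.00118). Mcm6, of the same helicase, rose by 1.15 ± 0.22 and Pola1, the catalytic subunit of DNA polymerase alpha, by 1.23 ± 0.22 (adjusted p = 0.00793 and 0.00636). The other wild-type marrows were higher than the C57B6 marrows for these genes, with Gins1 at 8.55 to 9.11 and Mcm6 at 11.43 to 11.79. With those 6 marrows as the control 1 replication gene was higher and 2 were lower, so the rise was not seen against them. Of 19 mitotic genes 1 rose, the checkpoint kinase gene Bub1 (0.91 ± 0.25, adjusted p = 0.0287), and not without leukemic array 4 or C57B6 marrow 2 or 3.

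Among 15 inhibitors of the cell cycle and targets of p53, 2 rose and 3 fell, with a list median of −0.63. Over all genes tested 15.1% were called higher and 6.81% lower, so the count of rises was near its share. Ccng1, a cyclin gene induced by p53, was at 10.03 to 10.63 in the leukemic arrays, with a median of 10.32, against 9.03, 9.41 and 9.04. It rose by 1.18 ± 0.16 (adjusted p = 0.00227) and lay above every wild-type marrow (8.83 to 9.12), both wild-type spleens (9.29 and 9.77) and healthy NHD13 marrow (9.02 to 9.41). Against healthy NHD13 marrow the difference was 1.16 ± 0.16 (adjusted p = 0.00237). Cdkn1a, the p21 inhibitor and another p53 target, rose by 1.54 ± 0.32 (adjusted p = 0.0103, and 0.0543 without C57B6 marrow 3). Cdkn2a, the Ink4a and Arf locus, was at 6.84, 5.97 and 6.45 in leukemic arrays 1, 2 and 4 and at 4.42 to 4.72 in the others, against 3.85 to 3.91 in C57B6 marrow. Its difference of 1.61 ± 0.55 missed the threshold (adjusted p = 0.0615). Btg2, an antiproliferative gene, fell by 1.73 ± 0.37 (adjusted p = 0.0121, and 0.0553 without C57B6 marrow 3). Mdm2, the p53 ligase and a further p53 target, differed by −0.069 ± 0.23. Without C57B6 marrow 3 none of the 3 falls was called.

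In the remaining lists the counts are to be read against the 15.1% of all genes tested that were called higher and the 6.81% called lower. In 17 interferon response genes 5 fell and none rose, and 2 fell without C57B6 marrow 2 or without marrow 3, against 8 without leukemic array 5. Ifit1 fell by 1.68 ± 0.30 (adjusted p = 0.00631), yet the other wild-type marrows, at 4.51 to 5.39, were as low as the leukemias, at 4.86 to 6.45. In 16 genes of sterol synthesis and uptake 4 rose and 1 fell, with 1 rise without C57B6 marrow 2. Idi1, an enzyme of the mevalonate pathway, rose by 1.2 ± 0.20 (adjusted p = 0.00435). In 19 homing and adhesion genes 5 fell, and 3 did without C57B6 marrow 1 or without marrow 3. Cxcr5, which guides B cells to follicles, fell by 2.63 ± 0.27 (adjusted p = 0.00049), and Ccl6, a chemokine of myeloid cells, by 2.19 ± 0.27 (adjusted p = 0.00117). Of 13 immediate early genes 3 fell, of 14 BCL2 family genes 1 fell, which is near the share over all genes, of 4 exocrine pancreas genes 2 fell, and none of 5 stefin genes was called, although 3 rose without leukemic array 3. Without C57B6 marrow 3 the first of these counts was 1 and the next 2 were 0.

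H2-Q10, a class Ib MHC gene, shows a limit of the control group. It was at 9.44, 9.35 and 9.52 in C57B6 marrow and at 3.87 to 4.80 in the 6 other wild-type marrows. The leukemic arrays were at 4.15 to 6.02 in arrays 1 to 5 and at 7.66 in array 6. The fall of 4.11 ± 0.67 (adjusted p = 0.00433) thus turned to a rise of 1.04 with the other wild-type marrows as the control. The strain of the NHD13 mice is not in the labels, and its part in the result was not tested.

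The 6 leukemias differed among themselves, most of all in array 3. The genes with the largest spread over the leukemic arrays included Hbb-y and Hba-x, the embryonic globins. Hbb-y was at 13.79 and 14.35 in arrays 1 and 5 and between 4.82 and 8.78 in the other 4, and Hba-x at 12.54 in array 5, 8.03 in array 1 and at most 5.17 elsewhere. Cd177, a surface protein of neutrophils, ranged from 5.04 in array 3 to 12.30 in array 6. Ly6k, of the Ly6 family, was at 12.24 in array 3 and 9.10 in array 1, and at 5.19 to 7.19 in the rest. Ms4a2, the beta chain of the IgE receptor, reached 11.47 in array 3, above C57B6 marrow (8.31 to 8.72), and 5.03 to 7.36 in the other 5. The sex-linked genes Xist, Eif2s3y and Kdm5d made up the remaining 3 of these 8.

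Array 3 was high in the IgE receptor genes Ms4a2 and Fcer1a and low in neutrophil granule genes. Gata2, a transcription factor of progenitors and mast cells, was highest there, at 10.11, with array 4 at 9.89. Against the mean of the other 5 leukemias, Ms4a2 was 5.5 log2 units higher and Fcer1a 4.87 higher, while Cd177 stood at −5.55, Ltf at −5.38 and Ngp at −4.53 relative to that mean. Ltf and Ngp encode proteins of neutrophil secondary granules. Genes of other lineages were also far above that mean, among them Ly6k (5.73), Cldn10 (4.9) and Pax6 (4.76). The genes of mast cells and basophils did not all follow, as Mcpt8 was at 4.48 in array 3, the lowest of the 6. Prg2 of eosinophils was lowest there too, at 4.53. The mean of the 11 eosinophil, basophil and mast cell genes was 6.95 in array 3 and 6.31 to 6.89 in the other 5. Array 2 was highest for Cd34 (10.98) and Flt3 (10.75), both genes of early progenitors, and array 5 for Vwf (12.32), the von Willebrand factor of platelets and vessels. Each of these is a single array, and no test was made.

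**Figure D4:**
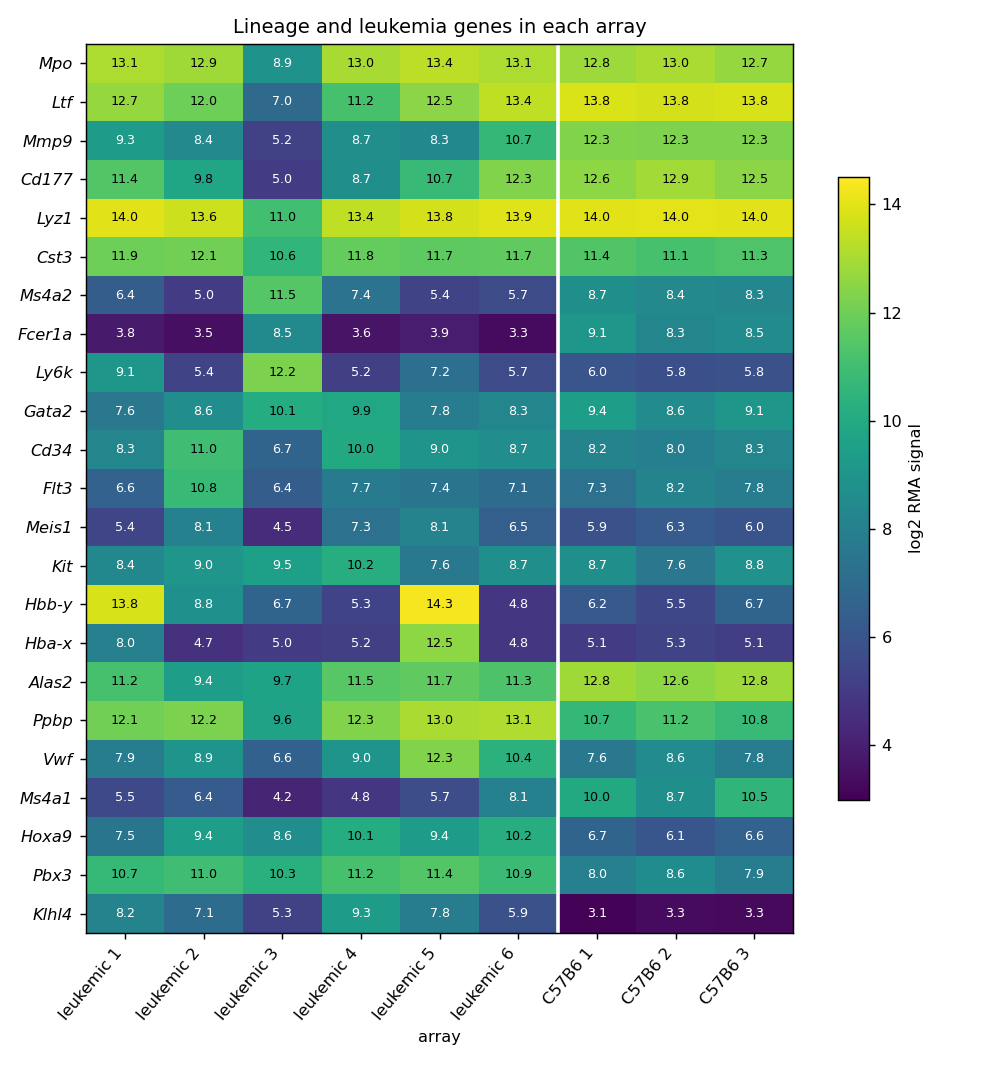
Log2 RMA signal, as colour and number, of 23 genes (rows) on the 6 leukemic spleens and 3 C57B6 marrows (columns). Array 3 is low for Mpo, Ltf, Mmp9 and Cd177 and high for Ms4a2, Fcer1a and Ly6k, while Hbb-y is high in arrays 1 and 5 and Flt3 and Cd34 in array 2.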

How the data were processed

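Gene expression was measured on Mouse Genome 430 2.0 arrays, and the authors deposited 1 table of log2 signals of 44943 probe sets on 57 arrays, made with RMA per the submitters' processing notes (version not given in the sources used here). These values were used without further normalization. Probe sets were named from the platform annotation. A single gene was given for 34842, several for 931 and none for 9106, and 64 were controls. Each of 18165 genes was represented by 1 probe set, the one with the strongest mean signal across the 57 arrays. Genes above the 40th percentile of their array on at least 3 of the 9 arrays were tested with limma 3.58.1 in R 4.3.3, with Benjamini-Hochberg adjustment over all 13300 genes at 0.05, and all adjusted p-values are from limma. Errors after ± are standard errors.

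The genes named are the 12 largest rises and 12 largest falls without overlap, a set of HOX and progenitor genes, up to 4 called members per list, the 8 genes of largest SD among the leukemias, and 6 rises and 6 falls called in both fits. Genes named beyond these were chosen after their values were seen. The members and lists were chosen with earlier results of these data known. In a test on simulated data of 13300 genes for this comparison, 48% of 100 genes changed by 1 log2 unit and 90% of 100 changed by 2 were recovered, with 13 false calls. The simulation gave each gene the same SD in both groups. Alternatives covered the normalization, the filter, the probe set per gene, array weights, other control marrows, the tissue subtraction, the replicate block and single arrays left out. Same-numbered arrays of the groups did not deviate together.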

Additional observations from a re-analysis of the deposited data

Results flagged for a closer look

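Of 128 named genes examined over the 6 leukemic arrays, 13 had 1 array far from the other 5, by a gap that took up most of the range (above the 95% critical value of Dixon's test). Chance flags about 1 in 20 such groups, and the genes are not independent. Array 3 held 6 of the 13. There the myeloid genes Mpo (8.89), Lyz1, a lysozyme (11.04), and Cst3, cystatin C (10.55), were lowest, as were the platelet gene Ppbp (9.61) and Btg2 (7.49), and Ms4a2 was highest (11.47). Array 6 held 3, all genes of mature B cells and highest there: Cr2 (5.47), Cxcr5 (4.97) and Fcer2a, the low-affinity IgE receptor (5.55). Single arrays were highest for Epx (array 1, 4.53), Flt3 (array 2, 10.75), Angpt1 (array 4, 9.96) and Cd4 (array 5, 6.64).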

How the results depend on the processing

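Of 3692 values of named genes under the alternatives, 3065 kept their direction and side of the threshold, 485 lost their call and 23 gained one. A further 119 changed sign, 53 of them for genes called neither before nor after, and the other 66 are given singly. The count of 2913 called genes was 6284 with array weights, 1852 with the Gapdh signal as a covariate, 1349 with C57B6 marrows 1 and 3 averaged, and 923 (747 with a difference of at least 1) with leukemic arrays of the same sex as the marrows. With wild-type marrows 4 to 6 as the control it was 8234 (4296 with a difference of at least 1), and with all 6 other wild-type marrows 6570 (2429). The members of the lists called, 130 in all, became 246 with array weights, 83 with the averaged marrows, 65 with 1 sex, 199 with the 6 other marrows and 70 with healthy NHD13 marrow. With single arrays left out, the counts ran from 1200 to 3400, those with a difference of at least 1 from 811 to 1549, and the members from 71 to 160. The replicate block, on arrays whose number occurs in both groups, gave 793 genes, 793 of them with a difference of at least 1, and 59 members. Same-numbered arrays did not deviate together (r = 0.08, −0.11 and 0.01), and differently numbered ones gave r from −0.07 to 0.1. These values cannot show whether any arrays were processed together. The subtracted count was 4082 with wild-type marrows 4 to 6 only, 1232 in a model of all 57 arrays, and 1025 to 1838 without 1 wild-type spleen.

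With the wild-type spleen minus marrow difference subtracted, the log2 difference changed sign for Coch at -1.29, Ackr3 at -0.83, Smoc2 at -0.146, Hs6st2 at -0.68, Adamdec1 at -0.453, Tcf21 at -1.29, Igfbp7 at -0.732, Col3a1 at -0.6, Prg2 at 1.92, Mcpt8 at 0.616, Vpreb1 at 0.238, Procr at -1.18, Csf3r at 0.961, Mpo at 4.19, Mmp9 at 1.31, Cxcr2 at 0.485, Mmp8 at 3.53, C1qb at -0.753, Mertk at -1.10, Spic at -0.991, Sdc1 at 0.131, Tlx1 at -1.11, Wt1 at -0.836, Ibsp at 0.598, Cela3b at 0.0462 and Ccl6 at 0.885. With the 6 other wild-type marrows as the control, the log2 difference changed sign for H2-Q10 at 1.04, Hoxc6 at -0.0905, H2-Oa at 0.296, Cdkn1b at 0.248, Ifit1 at 0.57 and Rfc4 at -0.15. With healthy NHD13 marrow as the control, the log2 difference changed sign for Prg2 at 0.564, Mcpt8 at 0.204, H2-Q10 at 1.19, Fcmr at 0.424, Hoxa9 at -0.332, Hoxc6 at -1.21, Prg3 at 0.435, Tbx21 at 0.307, Ciita at 0.217, H2-Oa at 0.358, H2-Ab1 at 0.588, Pola1 at -0.0908, Mcm6 at -0.143, Prim1 at -0.191, Cdkn1b at 0.000165, Stard4 at -0.203, Rfc4 at -0.545, Ms4a1 at 0.298 and Cr2 at 0.211. With wild-type marrows 1 to 3 as the control, the log2 difference changed sign for H2-Q10 at 1.17, Mcm6 at -0.0125, Cdkn1b at 0.0191, Ifit1 at 0.246, Stard4 at -0.188 and Rfc4 at -0.000234. With wild-type marrows 4 to 6 as the control, the log2 difference changed sign for H2-Q10 at 0.909, Hoxa5 at -0.634, Hoxc6 at -0.592, Tbx21 at 0.0959, H2-Oa at 0.615, Cdkn1b at 0.477, Ifit1 at 0.893, Irf7 at 0.0588 and Rfc4 at -0.299. The cause was not tested. Averaging marrows 1 and 3, the Gapdh covariate, the arrays of 1 sex and the removal of both leukemic array 3 and C57B6 marrow 2 were chosen after seeing the data. On simulated data with these group sizes, 48% of changes of 1 log2 unit and 90% of changes of 2 were called, so small differences can be missed. With 3 controls, the number of arrays limits the precision.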
